A study of Mus musculus with 35 samples.

Results

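Whole liver was compared with whole lung and whole small intestine across all genes of a mouse array. The comparison set the 3 liver arrays against the mean of the lung and intestine group means, so it used 9 of the 35 arrays of the series and each organ had 3. All animals were healthy wild type C57BL/6 females aged 8 to 16 weeks and carried no engineered allele. The rest of the series held sorted resident memory T cells of the same organs and blood cells, and whole organs were included to judge how much tissue RNA those sorts carried over. Organs were broken up on a mechanical dissociator with a tumour kit for liver, a lung kit for lung and a lamina propria kit for intestine. Organ and dissociation kit therefore cannot be told apart. Per the labels the whole organ samples were not purified further. The same text on extraction and labelling is given for all samples, written for the sorted T cells, with 300 pg of RNA of an integrity number above 8 amplified in 2 rounds. The labels do not link arrays to animals, so p-values reflect only how far these samples scattered, which may be technical.

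Hepatocytes make up most of the mass of the liver. They secrete most plasma proteins, dispose of ammonia as urea, build bile acids, oxidise fat and detoxify foreign compounds, and they share these tasks unevenly along the lobule from the portal vein to the central vein. Kupffer cells, sinusoidal endothelium, stellate cells and bile duct cells form the rest. Lung and small intestine are both lined by epithelia on smooth muscle and matrix, with surfactant and club cells in the airways and absorptive, goblet and Paneth cells in the gut. In tissue samples of this kind, fewer cells of a type and less RNA per cell cannot be told apart.

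A level below is a log2 signal minus the 75th percentile of its array, and a probe counts as detected where the scanner software marked it well above background. Detected probes made up 27.5%, 64.6% and 27.4% of the liver arrays, 32.0% to 33.5% of the lung arrays and 29.3% to 40.7% of the intestine arrays. Whole liver 2 stood apart. Its rank correlation over probes was 0.700 with liver 1 and 0.758 with liver 3, against 0.930 between those, and its median unscaled log2 signal was 12.08 against 8.26 and 8.45. Whole small intestine 3 had rank correlations of 0.850 and 0.845 with the other intestine arrays, which correlated at 0.949 with each other. All 8 hepatocyte markers listed to check the liver label, Alb, Apoa1, Ttr, Serpina1c, Fga, Cyp2e1, Cps1 and Ahsg, were detected on all 3 liver arrays and were higher than the mean of the other organs. Why liver 2 and intestine 3 stood apart was not tested. List counts against the mean of both organs are also given without any single array where that moved them by more than 1.5 times. For some lists, counts without liver 2 and intestine 3 together are given too. A gene was tested if all 3 arrays of an organ detected it. Members of a list could thus enter the test only through the organ where they were high.

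Of 9523 genes tested, 1411 (14.8%) were higher in liver than the mean of lung and intestine and 2096 (22.0%) were lower, at an adjusted p under 0.05. Of the higher genes 300 differed at least 16-fold, and of the lower genes 123, while the median difference was 1.86 for higher and -1.83 for lower genes (log2). Against lung alone, 14.6% of genes were higher and 20.8% lower, and against intestine alone 16.5% were higher and 20.4% lower. A gene was higher in liver than in both organs in 770 cases (8.09%) and lower than in both in 885 (9.29%). Liver stood between the other organs for 199 genes: 110 were higher than in lung and lower than in intestine, and 89 the reverse. The lowest liver array exceeded all 6 other arrays in 1047 of the 1411 higher genes, and in 14.1% of all genes tested. The highest liver array lay below all 6 others in 1216 of the 2096 lower genes, and in 14.3% of all genes tested.

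The balance of the calls depended on the scaling and on which liver array was left out. Higher genes were 40.2% of all calls, and 21.2% when each array was scaled on the 75th percentile of all probes, where the median difference over all genes was -0.48 instead of 0.05. Without liver 1, 1883 genes were higher and 1560 lower (54.7% of calls higher), and without liver 2, 1207 were higher and 2790 lower (30.2%). Without liver 2 and intestine 3, 1702 were higher and 3541 lower. Liver 2 was the highest of the 3 liver arrays in 1309 of the 2096 lower genes, and the only liver array with a detected signal in 208 of them.

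**Figure D1:**
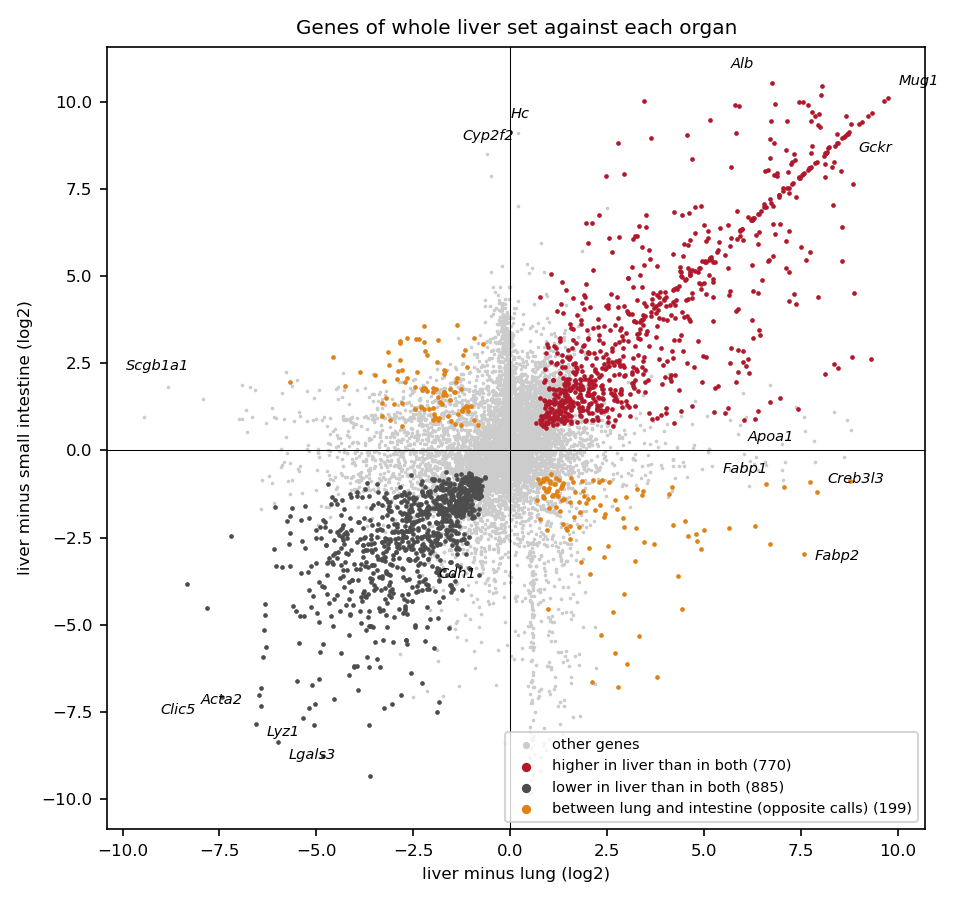
Each point is a gene, placed by its log2 difference of liver minus lung (horizontal) and of liver minus small intestine (vertical). Red points are the 770 genes higher in liver than in both organs, dark points the 885 lower than in both, and orange points the 199 that lay between lung and intestine. Named liver genes such as Mug1 lie at the upper right, Hc and Cyp2f2 near zero against lung, and Apoa1 and Fabp1 near zero against intestine.

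All 38 tested genes for plasma and transport proteins were higher in liver than the mean of the other organs, and 35 were higher than in each organ. Their median log2 difference was 7.33, against 0.05 over all genes tested, of which 14.8% were higher. When 6 of 9 arrays had to detect a gene, 15 of the list were tested and all 15 were higher. Mug1, a protease inhibitor of the alpha-2-macroglobulin family, had levels of 2.56, 2.27 and 2.63 in the liver arrays, -7.33, -7.31 and -7.17 in lung and -7.24, -7.21 and -8.45 in intestine. No lung or intestine array detected it, which makes liver at least 262-fold higher (adjusted p = 6.32e-07). Such a bound compares the brighter mean with what a dim array could still detect, taken as its lowest detected signal unless the probe itself read higher. Where some arrays of the dimmer organ detected a gene, its other arrays were set to the same level before a fold was taken. Serpina3k, a secreted serine protease inhibitor, stood at 2.12, 1.96 and 2.10 in liver, -7.68, -7.64 and -7.48 in lung and -7.56, -7.51 and -8.88 in intestine, at least 195-fold higher in liver (adjusted p = 6.32e-07). Every liver value of both genes lay above every value of the other organs. Apoh, which binds phospholipids in plasma, was at least 212-fold higher in liver (adjusted p = 6.66e-07), and Fgl1, a fibrinogen-like protein secreted by hepatocytes, at least 217-fold (adjusted p = 1.86e-06).

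Albumin is the main protein of plasma. Alb levels were 2.74, 2.91 and 2.85 in liver, -1.99, -7.43 and -2.39 in lung and -7.34, -7.26 and -8.58 in intestine. Lung arrays 1 and 3 detected it and lung array 2 did not, so its lung values spread over more than 5 log2 units. The liver values still lay above all others, and Alb was 68.0-fold higher than in lung (adjusted p = 0.00303) and at least 379-fold higher than in intestine (adjusted p = 2.79e-04). Hpx, which binds free haem, showed the same split, with 2.57, 2.38 and 2.50 in liver, -4.55, -7.35 and -4.72 in lung and -7.31, -7.21 and -8.60 in intestine. Across all genes tested, 121 were more than 1 log2 unit higher in lung 1 and in lung 3 than in lung 2, and 66 of those were among the genes higher in liver. In the other direction, 24 genes were more than 1 unit lower in both arrays, 2 of them higher in liver. Where those transcripts in 2 of the 3 lung arrays came from was not tested.

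Promoters of 3 of these genes are shown because they hold a motif of a hepatocyte transcription factor within 250 bases before and 50 after the annotated start. Cyp2c70 and Gckr met a rule for printing them, and Alb was added after its values were seen. The sequences are RefSeq's for build GRCm38.p6, read 5′ to 3′ on the strand of the gene, and capitals mark matches to the motifs searched on both strands: GTTAATNAT for HNF1, CAAAGTCCA for HNF4, TTGCNNAA for C/EBP and TGTTTAC for FOXA.
Cyp2c70, chr19:40187237-40187536, minus strand: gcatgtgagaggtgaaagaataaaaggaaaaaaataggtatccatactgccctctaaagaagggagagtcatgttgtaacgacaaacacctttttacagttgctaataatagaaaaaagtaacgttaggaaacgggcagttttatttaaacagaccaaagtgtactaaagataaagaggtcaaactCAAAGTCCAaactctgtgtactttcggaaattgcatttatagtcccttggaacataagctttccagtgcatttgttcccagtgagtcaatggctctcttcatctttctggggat
Gckr, chr5:31297313-31297612, plus strand: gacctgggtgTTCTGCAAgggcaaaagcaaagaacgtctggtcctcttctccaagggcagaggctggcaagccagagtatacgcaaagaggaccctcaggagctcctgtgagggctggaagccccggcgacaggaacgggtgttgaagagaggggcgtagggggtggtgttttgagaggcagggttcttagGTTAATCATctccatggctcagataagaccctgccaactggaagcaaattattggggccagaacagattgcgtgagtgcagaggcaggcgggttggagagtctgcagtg
Alb, chr5:90460620-90460919, plus strand: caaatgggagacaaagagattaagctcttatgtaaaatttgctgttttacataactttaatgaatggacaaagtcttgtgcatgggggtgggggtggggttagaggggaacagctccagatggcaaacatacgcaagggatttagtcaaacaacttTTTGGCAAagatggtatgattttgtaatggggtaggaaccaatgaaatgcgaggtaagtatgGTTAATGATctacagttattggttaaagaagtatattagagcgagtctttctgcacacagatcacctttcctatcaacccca
The HNF4 match of Cyp2c70 began 64 bases before the start. The HNF1 match of Gckr began 59 bases before it and that of Alb 32 bases before it, and each of these also held a C/EBP match further upstream. No motif overlapped another in these windows.

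Over the 615 genes higher than in both organs that had a promoter in the table, 26 (4.23%) held the HNF1 motif, against 61 of 7590 (0.804%) of all tested genes with a promoter and 0.801% of all 32851 promoters. The HNF4 motif was in 1.46% of these genes, in 0.672% of all tested genes and in 0.475% of all promoters. C/EBP letters occurred in 16.7%, 11.0% and 10.8%, and FOXA letters in 5.37%, 3.49% and 3.65%. Among 719 genes lower than in both organs, the shares were 0.556% for HNF1, 0.556% for HNF4, 11.4% for C/EBP and 2.5% for FOXA. A match describes the letters of the window and does not show that a factor bound there.

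Coagulation factors, which circulate as liver-made precursors, were higher in liver in 22 of 24 tested genes and lower in none. With 6 of 9 arrays required, 6 were tested and 4 were higher. Fgg, the gamma chain of fibrinogen, had 2.68, 2.62 and 2.73 in liver, -4.04, -7.43 and -4.69 in lung and -7.38, -7.32 and -8.68 in intestine. It was at least 340.2-fold higher in liver than in intestine (adjusted p = 2.05e-05) and 167-fold higher than in lung (adjusted p = 9.11e-05), with detected signal on the same 2 lung arrays as Alb. F12, the contact factor, and F2, prothrombin, were detected on no lung or intestine array and were at least 111-fold (adjusted p = 6.32e-07) and 111-fold (adjusted p = 6.32e-07) higher in liver. The exceptions were Pros1, with a difference of 0.97 ± 0.37 (log2, SE; adjusted p = 0.0732), and F10. F10, chosen after its values were seen, read 1.17, 0.98 and 1.75 in liver, 2.13, 2.29 and 1.98 in lung and 1.52, 1.59 and -1.12 in intestine, and its 2 probes differed in sign.

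Complement proteins tag microbes for uptake and lysis. Of 17 tested genes 12 were higher in liver, 1 was lower and 4 were not called. Cfi, the protease that cleaves C3b and C4b, had 1.31, 0.96 and 1.26 in liver, -7.75, -7.72 and -7.59 in lung and -7.62, -7.56 and -4.27 in intestine. It was detected on no lung array and on 1 intestine array, and was at least 92.9-fold higher in liver than in lung (adjusted p = 4.86e-05). C8b, a chain of the membrane attack complex, was at least 32.3-fold higher than the mean of the other organs (adjusted p = 1.91e-06). Hc, which encodes C5, overlapped between liver and lung, with 1.47, 1.12 and 1.44 in liver, 1.38, 1.08 and 0.92 in lung and -7.39, -7.31 and -8.63 in intestine. Its difference from lung was 0.22 ± 0.37 (log2, SE; adjusted p = 0.717), and it was at least 135-fold higher than in intestine (adjusted p = 8.50e-07). Cfd, factor D, a serine protease made mainly by fat cells, went the other way, with -6.81, -2.13 and -5.25 in liver, -0.49, 0.29 and -1.48 in lung and 1.31, 1.86 and 1.97 in intestine, 23.8-fold lower than the mean of both (adjusted p = 0.002). Only liver 2 of the 3 liver arrays detected it.

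**Figure D2:**
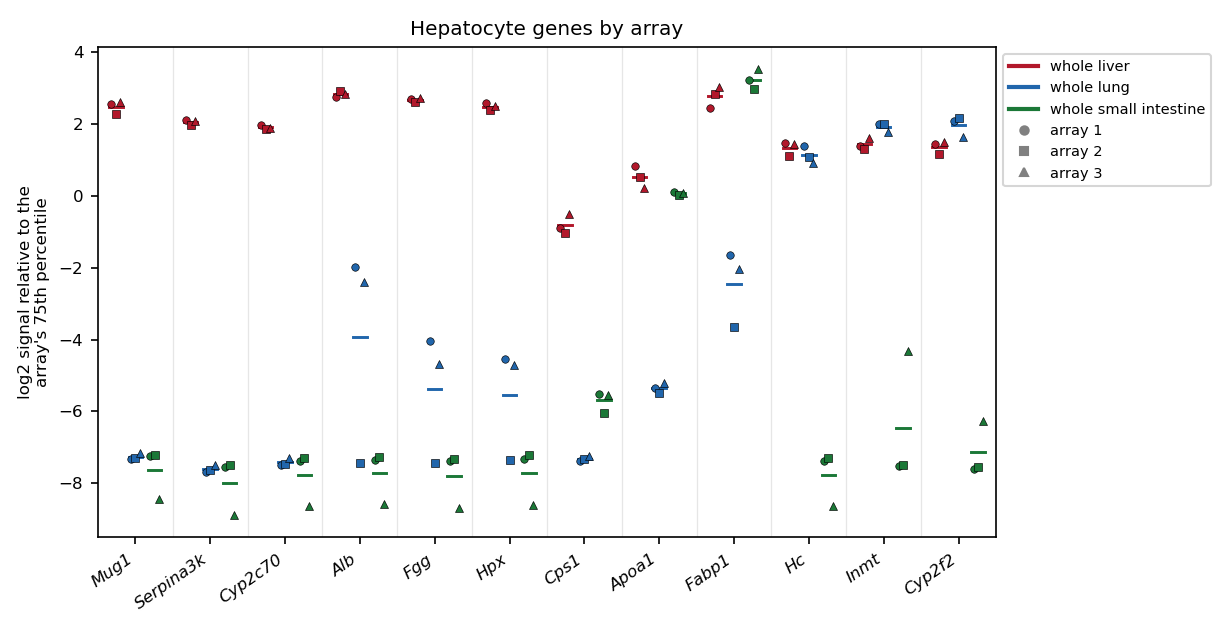
Log2 level of 12 hepatocyte genes on each array, with liver in red left of lung in blue and intestine in green. Symbols are arrays 1 to 3 and lines are group means. Alb, Fgg and Hpx lie higher in lung arrays 1 and 3 than in lung 2, Apoa1 and Fabp1 are also bright in intestine, and Hc, Inmt and Cyp2f2 in lung.

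Lipoprotein genes were higher in liver in 19 of 21 cases, and 18 were higher than in lung and 16 than in intestine. Apof, a lipid transfer inhibitor, was at least 113-fold higher in liver than the mean of both (adjusted p = 6.32e-07), and Apom, a carrier of sphingosine 1-phosphate, at least 135-fold (adjusted p = 6.60e-07). Apoa1, the main protein of HDL, had 0.82, 0.54 and 0.23 in liver, -5.34, -5.47 and -5.21 in lung and 0.12, 0.01 and 0.08 in intestine. It was at least 57.4-fold higher than in lung (adjusted p = 1.30e-06) and differed from intestine by 0.46 ± 0.24 (log2, SE; adjusted p = 0.139). Liver and intestine values of Apoa1 did not overlap, though the difference did not pass the test. Apoa4, which enterocytes put on chylomicrons, had -6.39, -2.43 and -5.73 in liver, -6.55, -5.84 and -6.52 in lung and 0.77, 0.98 and 1.80 in intestine, and was lower than in intestine by 38.7-fold (adjusted p = 0.00109). Against the mean of both organs Apoa4 missed the threshold (adjusted p = 0.0505), but it was called lower under 11 of 21 alternatives, among them slide as a block (adjusted p = 0.0484) and leaving out liver 2 (-3.49, log2; adjusted p = 0.000162).

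Cytochrome P450 and other drug metabolism genes were higher in liver in 45 of 55 cases and lower in 3, or in 5 without liver 2 and intestine 3. The list was higher than lung in 44 genes and higher than intestine in 33, and its median log2 difference was 5.05 against lung and 2.87 against intestine. Cyp2c70, which makes muricholic acids in the mouse, had 1.97, 1.85 and 1.90 in liver, -7.50, -7.46 and -7.30 in lung and -7.38, -7.29 and -8.63 in intestine. It was at least 175-fold higher in liver (adjusted p = 6.32e-07), and Cyp2a12 at least 154-fold (adjusted p = 6.32e-07). Probes for the Cyp2c genes may read their close paralogs. Cyp2e1, which oxidises ethanol, had 2.44, 2.41 and 2.53 in liver, -4.27, -5.48 and -4.43 in lung and -5.09, -4.56 and -1.84 in intestine, and the liver values lay above all others. It was 143-fold higher than in lung (adjusted p = 1.34e-04) and 78.4-fold higher than in intestine (adjusted p = 3.15e-04).

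Some members of the same family were bright in the other organs. Cyp2f2, found in mouse club cells and periportal hepatocytes, had 1.44, 1.16 and 1.50 in liver and 2.09, 2.17 and 1.64 in lung, a difference of -0.60 ± 0.38 (log2, SE; adjusted p = 0.264), and -7.60, -7.54 and -6.27 in intestine. Cyp2s1, an epithelial P450, was detected on no liver array and was at least 29.3-fold lower than in lung (adjusted p = 3.92e-05) and at least 21.2-fold lower than in intestine (adjusted p = 6.43e-05). Cyp4b1 was lower than in lung by 24.1-fold (adjusted p = 4.39e-04) and than in intestine by 12.5-fold (adjusted p = 0.00171). Cyp2c65 was at least 20.2-fold lower than in intestine (adjusted p = 4.77e-05) and detected on no liver or lung array.

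Bile acid synthesis and transport genes were higher in 15 of 19 cases and lower in none, or in 2 without liver 2. Abcb11, the pump that exports bile salts into the canaliculus, had 1.05, 0.97 and 1.27 in liver, -7.46, -7.41 and -7.23 in lung and -7.34, -7.28 and -8.56 in intestine, at least 87.9-fold higher than in lung (adjusted p = 1.45e-06) and at least 114-fold higher than in intestine (adjusted p = 8.50e-07). Slco1b2, an uptake carrier of the sinusoidal side, was at least 75.6-fold higher (adjusted p = 1.06e-05). Abcb4, which moves phosphatidylcholine into bile, was 75.9-fold higher than in lung (adjusted p = 5.75e-06) and 23.7-fold higher than in intestine (adjusted p = 3.39e-05). Slc10a1, the sodium-dependent bile salt carrier of hepatocytes, was bright on all 9 arrays, with 2.63, 2.55 and 2.68 in liver, 2.79, 3.10 and 2.53 in lung and 2.89, 2.74 and 3.19 in intestine. It is named here after its values were seen, and its difference from the mean of both was -0.25 ± 0.21 (log2, SE; adjusted p = 0.371). Whether its probe reads that transcript in the other organs was not tested.

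All 41 tested genes of the urea cycle and amino acid breakdown were higher in liver, 34 of them than in each organ, with a median log2 difference of 4.88. When 6 of 9 arrays had to detect a gene, 21 were tested and all 21 were higher. Cps1, the first enzyme of the urea cycle, had -0.89, -1.02 and -0.50 in liver, -7.38, -7.33 and -7.23 in lung and -5.51, -6.05 and -5.53 in intestine. It was at least 23.5-fold higher than in lung (adjusted p = 1.30e-06), and 23.4-fold higher than in intestine (adjusted p = 2.32e-06), where 1 array detected it. Ftcd and Hal break down histidine. Ftcd was 203-fold higher than in lung (adjusted p = 1.58e-06), where 1 array detected it, and at least 290.0-fold higher than in intestine (adjusted p = 7.50e-07). Relative to the mean of both organs, Hal was at least 70.5-fold higher (adjusted p = 6.39e-07). The liver values of both genes lay above all values of the other organs.

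Methionine metabolism held isozymes that went opposite ways. Mat1a, which makes S-adenosylmethionine in adult liver, had 0.37, 0.09 and 0.34 in liver, -7.59, -7.53 and -7.39 in lung and -7.48, -7.40 and -8.72 in intestine, at least 56.2-fold higher in liver (adjusted p = 6.73e-07). Mat2a, the form of other tissues, had -1.39, -1.43 and -0.87 in liver, 0.26, 0.14 and 0.14 in lung and -0.90, -0.62 and -0.07 in intestine, and was lower in liver by 2.08-fold than the mean of both (adjusted p = 0.0106). Its liver values lay below all lung values, and liver 3 overlapped intestine 1. Mat2b, the regulatory partner of Mat2a, was lower by 2.14-fold (adjusted p = 0.00321). The Mat2a call was lost under 3 of 22 alternatives and the Mat2b call under 2. In the whole list 16 of 20 genes were higher and 2 lower. Bhmt, which remethylates homocysteine, read 2.70, 2.72 and 2.80 in liver, -3.97, -6.63 and -3.55 in lung and -7.47, -7.41 and -6.93 in intestine, again with signal on lung arrays 1 and 3, and was 132-fold higher than in lung (adjusted p = 6.84e-05). Gnmt, which uses up surplus S-adenosylmethionine, was 107-fold higher than in lung (adjusted p = 1.74e-06) and at least 235-fold higher than in intestine (adjusted p = 7.50e-07).

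Of the glucose metabolism genes 13 of 23 were higher and 5 lower, against 14.8% higher and 22.0% lower among all genes tested. The count of lower genes was thus near the share over all genes. Gckr, a regulatory protein of hepatic glucose use, had 1.25, 1.09 and 1.53 in liver, -7.53, -7.43 and -7.34 in lung and -7.38, -7.35 and -8.69 in intestine, at least 114-fold higher than the mean of both (adjusted p = 6.32e-07). Gys2, the liver glycogen synthase, was at least 19.1-fold higher (adjusted p = 2.70e-06). Both were detected on every liver array and on no other. Pkm, the muscle-type pyruvate kinase, had -3.67, -3.46 and -3.77 in liver, -0.57, -0.59 and -0.55 in lung and 0.76, 0.35 and 0.61 in intestine, lower in liver by 12.4-fold than the mean of both (adjusted p = 2.65e-06). Ldhb, a lactate dehydrogenase subunit, was lower than in lung by 36.6-fold (adjusted p = 1.26e-05) and than in intestine by 3.8-fold (adjusted p = 0.00379). The other lower genes were Hk1, Hk2 and Aldoa. Fbp1, a gluconeogenic phosphatase, was at least 182-fold higher than in lung (adjusted p = 9.45e-06) and 5.12-fold higher than in intestine (adjusted p = 0.0121).

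Fatty acid oxidation, ketone body and peroxisome genes were higher in 31 of 33 cases and lower in none, with 31 genes higher than in lung (median log2 difference 3.25) and 19 higher than in intestine (median 1.13). Uox, the peroxisomal urate oxidase, had 2.03, 1.91 and 2.07 in liver, -5.04, -6.46 and -5.18 in lung and -7.56, -7.51 and -8.94 in intestine. It was 148-fold higher than in lung (adjusted p = 8.02e-06) and at least 213-fold higher than in intestine (adjusted p = 1.68e-06). Acsm1, a medium-chain acyl-CoA synthetase, was 23.6-fold higher than in lung (adjusted p = 6.51e-05) and at least 118-fold higher than in intestine (adjusted p = 1.33e-06). Under scaling on all probes the count of higher genes fell to 18 of 33. Fabp1, the liver fatty acid binding protein, had 2.46, 2.85 and 3.04 in liver, -1.64, -3.64 and -2.04 in lung and 3.23, 2.96 and 3.53 in intestine. It was 37.3-fold higher than in lung (adjusted p = 6.81e-05), while liver and intestine overlapped (difference -0.46 ± 0.49, log2, SE; adjusted p = 0.454). Fabp2, the intestinal form, was at least 40.0-fold higher than in lung (adjusted p = 4.93e-07) and lower than in intestine by 7.79-fold (adjusted p = 2.62e-05).

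Of 22 tested transcription factors of hepatocytes, 14 were higher than the mean of both organs and 2 lower, against 14.8% and 22.0% of all genes tested. Against lung 14 were higher, and 14.6% of all genes. Against intestine 9 were higher and 5 lower, where all genes gave 16.5% higher and 20.4% lower. The count lower than in intestine was thus near the share over all genes. Nr1h4, the bile acid receptor FXR, had -0.67, -0.99 and -0.31 in liver, -7.69, -7.65 and -7.53 in lung and -2.45, -2.67 and -1.36 in intestine. It was at least 26.0-fold higher than in lung (adjusted p = 3.31e-06) and 2.84-fold higher than in intestine (adjusted p = 0.0128), without overlap. Hnf4a, a nuclear receptor that governs hepatocyte genes and is also active in gut epithelium, had 0.74, 0.61 and 0.49 in liver, -1.63, -1.37 and -1.04 in lung and 0.59, 0.62 and 1.57 in intestine. It was 3.89-fold higher than in lung (adjusted p = 0.00161) and differed from intestine by -0.31 ± 0.32 (log2, SE; adjusted p = 0.438). Its call against the mean of both (adjusted p = 0.0482) was lost under 15 of 22 alternatives, among them leaving out any one liver or lung array, with adjusted p from 0.0594 to 0.118 for those.

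Other named factors ran in both directions. Cebpa, which holds hepatocytes in a differentiated state, was 3.53-fold higher than in lung (adjusted p = 0.00384) and 3.74-fold higher than in intestine (adjusted p = 0.00339). Nr5a2, known as LRH-1, was at least 5.04-fold higher than in lung (adjusted p = 1.65e-04) and 5.46-fold higher than in intestine (adjusted p = 0.00493). Creb3l3, a membrane-bound factor of fasting metabolism, was at least 55.2-fold higher than in lung (adjusted p = 7.26e-07) and lower than in intestine by 2.27-fold (adjusted p = 0.0103). Onecut2 read 0.28, 0.36 and 0.20 in liver, -7.41, -7.37 and -7.18 in lung and -0.04, -0.65 and -0.15 in intestine, and was not called against intestine (adjusted p = 0.093). Tbx3, which is active in pericentral hepatocytes, was lower in liver than the mean of both by 5.4-fold (adjusted p = 1.34e-04), with every liver value below every other value. Foxa3 was on the array but did not pass the filter.

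**Figure D3:**
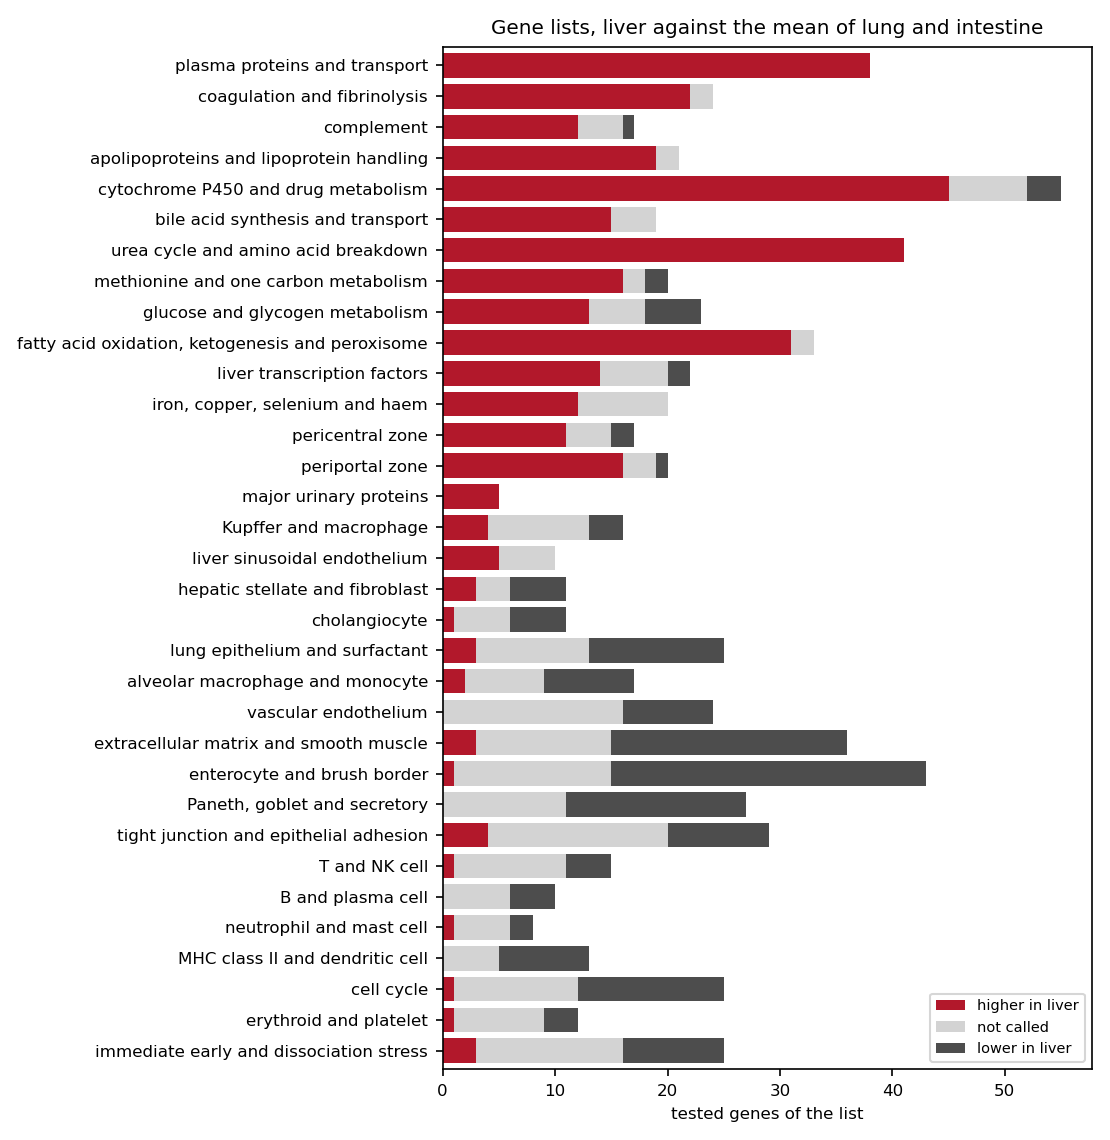
Number of tested genes in each of the 33 lists that were higher in liver (red), not called (grey) and lower in liver (dark) against the mean of lung and intestine. The plasma protein and urea cycle lists are wholly red, and the enterocyte and smooth muscle lists hold the most lower calls, 28 and 21.

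Both zones of the lobule were represented. Of the periportal list 16 of 20 tested genes were higher and 1 lower, and of the pericentral list 11 of 17 were higher and 2 lower. Without liver 2 the periportal list had 2 lower genes, and without liver 1, liver 3 or any one lung array the pericentral list had 1. Gls2, the periportal glutaminase, had 1.58, 1.29 and 1.52 in liver, -5.52, -6.05 and -5.44 in lung and -6.01, -5.77 and -6.43 in intestine, at least 125-fold higher (adjusted p = 6.32e-07). Lect2, a hepatocyte-secreted protein of the pericentral list, was at least 82.1-fold higher than in lung (adjusted p = 1.13e-06). Glul, glutamine synthetase of the cells around the central vein, had -0.85, -0.28 and 0.40 in liver, -0.99, -1.57 and -1.58 in lung and -4.14, -4.43 and -2.30 in intestine. It was 10.4-fold higher than in intestine (adjusted p = 0.00212) and not called against lung (1.14 ± 0.57, log2, SE; adjusted p = 0.168), although the liver and lung values did not overlap. Slc1a2, a glutamate transporter of the same cells, was at least 6.07-fold higher than the mean of both (adjusted p = 4.83e-05). Cdh1, E-cadherin, which in liver is periportal, had -6.77, -5.25 and -6.88 in liver, -3.65, -4.68 and -4.22 in lung and -2.64, -2.57 and -2.14 in intestine and was lower, by at least 4.94-fold than in intestine (adjusted p = 3.39e-04).

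Iron and haem genes were higher in 12 of 20 cases and lower in none, or in 1 without liver 2 and intestine 3. Hamp, which encodes hepcidin, had 0.58, 0.32 and -0.43 in liver, -7.53, -7.47 and -7.32 in lung and -7.42, -7.34 and -8.64 in intestine, at least 52.0-fold higher (adjusted p = 1.42e-06). Its paralog Hamp2 was at least 152-fold higher (adjusted p = 5.08e-06), and Tfr2, a sensor of transferrin-bound iron, at least 151-fold (adjusted p = 6.60e-07). Mt1, a metallothionein, differed by 0.68 ± 0.47 (log2, SE; adjusted p = 0.271) and its liver values overlapped those of intestine. All 5 tested genes of the major urinary protein list, Mup2, Mup3, Mup4, Mup20 and Mup21, were higher in liver and detected on no lung or intestine array. They thus entered the test through liver alone, from a list of 9 genes. Among them Mup2 varied between liver arrays, with -0.67 in liver 1, 2.05 in liver 3 and liver 2 between them, against -7.27, -7.53 and -7.33 in lung and -7.47, -7.40 and -8.67 in intestine, at least 82.9-fold higher (adjusted p = 8.67e-06). The Mup, Serpina1 and Cyp2c genes are near-identical copies, so a probe may read several of them.

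Of 10 tested sinusoidal endothelial genes 5 were higher and none lower, but 2 were lower without intestine 3 and 1 without liver 1 or intestine 1. With liver 2 and intestine 3 both left out, 3 were lower. Among all genes tested 14.8% were higher and 22.0% lower. Against lung alone 3 of the 10 were higher and 2 lower, and against intestine alone 6 were higher and none lower. The list had 21 genes on the array, and those that did not pass the filter were not tested. Stab2, a scavenger receptor of these vessels, had -1.09, -0.59 and -0.63 in liver, -5.02, -5.77 and -5.82 in lung and -7.50, -6.99 and -8.82 in intestine, 21.9-fold higher than in lung (adjusted p = 8.96e-05) and at least 31.2-fold higher than in intestine (adjusted p = 9.38e-06). Clec4g, a lectin of the same cells, was at least 22.9-fold higher than the mean of both (adjusted p = 1.06e-05), and Ehd3 was 3.83-fold higher than in lung (adjusted p = 0.00248). Gpr182, a receptor of the same vessels, had -1.16, -1.10 and -1.28 in liver, -0.46, -0.44 and -0.70 in lung and -5.14, -5.19 and -5.66 in intestine, and was not called against lung (adjusted p = 0.0652).

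Kupffer and macrophage genes were higher in 4 of 16 cases and lower in 3, against 14.8% higher and 22.0% lower among all genes tested. Clec4f, the lectin that marks Kupffer cells in mice, had -2.59, -0.66 and -1.11 in liver, -4.87, -4.90 and -4.94 in lung and -5.02, -5.15 and -6.84 in intestine, 10.9-fold higher than in lung (adjusted p = 0.0022) and 17.9-fold higher than in intestine (adjusted p = 8.10e-04). Liver 1 was the lowest liver array and still lay above the other organs. Vsig4, a complement receptor, was at least 5.43-fold higher than the mean of both (adjusted p = 1.77e-04), and Cd5l, a secreted macrophage protein, 21.3-fold higher than in lung (adjusted p = 2.99e-04). Marco, a scavenger receptor also carried by alveolar macrophages, was not called against lung (0.87 ± 0.51, log2, SE; adjusted p = 0.227). The lower genes of the list included Lyz1 and Itgax, and the Itgax call was lost under 7 of 22 alternatives. Against lung alone 3 genes were higher and 3 lower, with a median log2 difference of 0.04. Among all genes 14.6% were higher and 20.8% lower than in lung. Against intestine alone 6 were higher and 2 lower. Without liver 1, 7 genes of the list were higher and 2 lower than the mean of both.

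Among stellate and fibroblast genes 3 of 11 were higher and 5 lower, against 14.8% and 22.0% of all genes tested. Without intestine 3 there were 5 higher. Colec11, a lectin of the complement pathway, had -0.40, -0.90 and -1.11 in liver, -5.36, -5.50 and -5.38 in lung and -7.37, -7.29 and -8.20 in intestine, at least 26.5-fold higher (adjusted p = 1.75e-06). Col1a1, the main fibrillar collagen, was lower, with -3.88 in liver 1, -6.90 in liver 3 and liver 2 between them, -0.06, 0.00 and -0.67 in lung and -2.16, -3.02 and -0.86 in intestine, by 17.3-fold than in lung (adjusted p = 0.00121) and 5.07-fold than in intestine (adjusted p = 0.0122). Only liver 1 detected it among the liver arrays. Bile duct genes were lower in 5 of 11 cases and higher in 1, Spp1, whose call was lost under 8 alternatives. Krt19, a duct keratin, had -4.60, -2.41 and -4.42 in liver, -0.32, -0.37 and -0.27 in lung and 1.67, 1.47 and 1.89 in intestine, lower by 11.2-fold than in lung (adjusted p = 0.00101) and 44.9-fold than in intestine (adjusted p = 7.99e-05). Without liver 2 the duct list had 8 lower genes and no higher one, without liver 1 it had 2 higher ones, and without liver 3, lung 2 or lung 3 it had none higher.

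Among the genes furthest below both other organs was Clic5, a chloride channel family protein tied to the actin cortex. It had -7.28, -6.53 and -6.77 in liver, 0.68, 0.59 and 0.42 in lung and -0.10, -0.36 and 1.13 in intestine. No liver array detected it, and it was at least 35.5-fold lower than the mean of both (adjusted p = 1.75e-06). Lgals3, galectin-3, was at least 40.6-fold lower (adjusted p = 8.99e-07), Pfkfb4, a regulator of glycolysis, at least 30.4-fold (adjusted p = 6.32e-07), and Ezr, which links microvilli to actin, at least 23.7-fold (adjusted p = 4.78e-05). These 4 genes were detected on every lung and intestine array and on no liver array. Of the 885 genes lower than in both organs, 294 were detected on no liver array and 420 on all 3.

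Smooth muscle and matrix genes were lower in liver in 21 of 36 cases and higher in 3. Acta2, smooth muscle actin, had -3.57, -5.87 and -6.84 in liver, 1.03, 1.31 and 0.81 in lung and 1.63, 1.24 and 1.94 in intestine. Its liver values spread over more than 3 log2 units and all lay below the other organs, lower by 39.5-fold than in lung (adjusted p = 1.70e-04) and 58.0-fold than in intestine (adjusted p = 1.12e-04). Actg2, the enteric form, was detected on no liver array and was at least 45.2-fold lower than in intestine (adjusted p = 1.69e-06). Fn1, fibronectin, which hepatocytes secrete into plasma, was one of the higher genes, with 1.78, 1.58 and 1.87 in liver, 0.45, 0.66 and 0.59 in lung and -0.75, -1.14 and -0.34 in intestine, 2.25-fold higher than in lung (adjusted p = 0.00813), a call against the mean of both that was lost under 3 alternatives. Inmt, a methyltransferase abundant in lung, was another and was not called against lung (difference -0.49 ± 0.76, log2, SE; adjusted p = 0.683).

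Airway and alveolar genes were lower than in lung in 17 of 25 cases and higher in 1. Among all genes tested 20.8% were lower than in lung and 14.6% higher. With 6 of 9 arrays required, 16 of the list were tested, with 7 lower and 3 higher than the mean of both. Scgb1a1, the club cell secretoglobin, had -7.25, -3.77 and -6.77 in liver, 2.94, 3.17 and 2.61 in lung and -7.33, -7.29 and -8.61 in intestine, lower than in lung by 175-fold (adjusted p = 6.96e-05), and of the liver arrays only liver 2 detected it. Sftpc, surfactant protein C, had -4.83, -1.70 and -4.40 in liver, 2.96, 3.25 and 2.61 in lung and -4.51, -5.18 and -6.45 in intestine, lower by 95.6-fold (adjusted p = 3.24e-04), and liver 2 again gave the highest liver value. Pdpn, a marker of alveolar type I cells and lymphatic vessels, was at least 48.6-fold lower than in lung (adjusted p = 6.36e-07) and at least 4.9-fold lower than in intestine (adjusted p = 4.11e-06). Vascular endothelial genes were lower than in lung in 16 of 24 cases, and 9 of the 24 were higher than in intestine. Against the mean of both organs 8 were lower, or 15 without liver 2 and intestine 3. Thbd, thrombomodulin, had -7.39, -6.71 and -7.09 in liver, 1.44, 1.32 and 1.08 in lung and -3.57, -3.64 and -2.53 in intestine, at least 65.5-fold lower than in lung (adjusted p = 1.45e-06).

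Enterocyte and brush border genes were lower than in intestine in 38 of 43 cases and higher in 1, and 4 were higher than in lung. Among all genes tested 20.4% were lower than in intestine and 16.5% higher, and 14.6% were higher than in lung. Against the mean of both, 28 of the list were lower and 1 higher, or 2 higher without intestine 1. When 6 of 9 arrays had to detect a gene, 11 were tested, with 4 lower and 1 higher than the mean of both. Vil1, villin, had -7.33, -5.58 and -6.86 in liver, -7.59, -7.54 and -7.39 in lung and 1.77, 1.73 and 2.49 in intestine, at least 108-fold lower than in intestine (adjusted p = 2.26e-06). Mep1b, a brush border protease, was at least 159.9-fold lower (adjusted p = 6.96e-07). Paneth, goblet and endocrine genes were lower than in intestine in 24 of 27 cases and higher in none. With 6 of 9 arrays required, 6 were tested and 4 were lower than the mean of both. Zg16, a goblet cell lectin, was at least 153-fold lower (adjusted p = 1.28e-05). Lyz1, the Paneth cell lysozyme, had -7.29, -3.78 and -6.73 in liver, 1.03, 0.72 and 0.14 in lung and 1.42, 1.39 and 2.92 in intestine, lower than in intestine by 87.6-fold (adjusted p = 1.85e-04) with only liver 2 detecting it in liver, and its probe may also read its copy Lyz2. The gut and airway lists differed by liver array. The mean level of the Paneth, goblet and secretory list was -6.24, -3.70 and -6.02 in liver arrays 1 to 3, between -6.16 and -6.09 in lung and between -0.23 and 0.36 in intestine. The airway list likewise averaged -4.60, -2.67 and -4.28 in liver, -0.32 to 0.06 in lung and -5.58 to -5.09 in intestine. Liver 2 was also the highest liver array in most other lists. In liver arrays 1 to 3 the Kupffer list averaged -3.50, -1.86 and -2.73, and the vascular list -3.92, -2.82 and -3.70. Against the mean of both, 16 Paneth, goblet and secretory genes were lower with all arrays, 13 without liver 1, 24 without liver 2 and 11 without liver 3. Lower airway genes were 12 with all arrays, 8 without liver 1, 16 without liver 2 and 7 without liver 3. The part of single liver arrays in these lists was not tested beyond these counts.

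**Figure D4:**
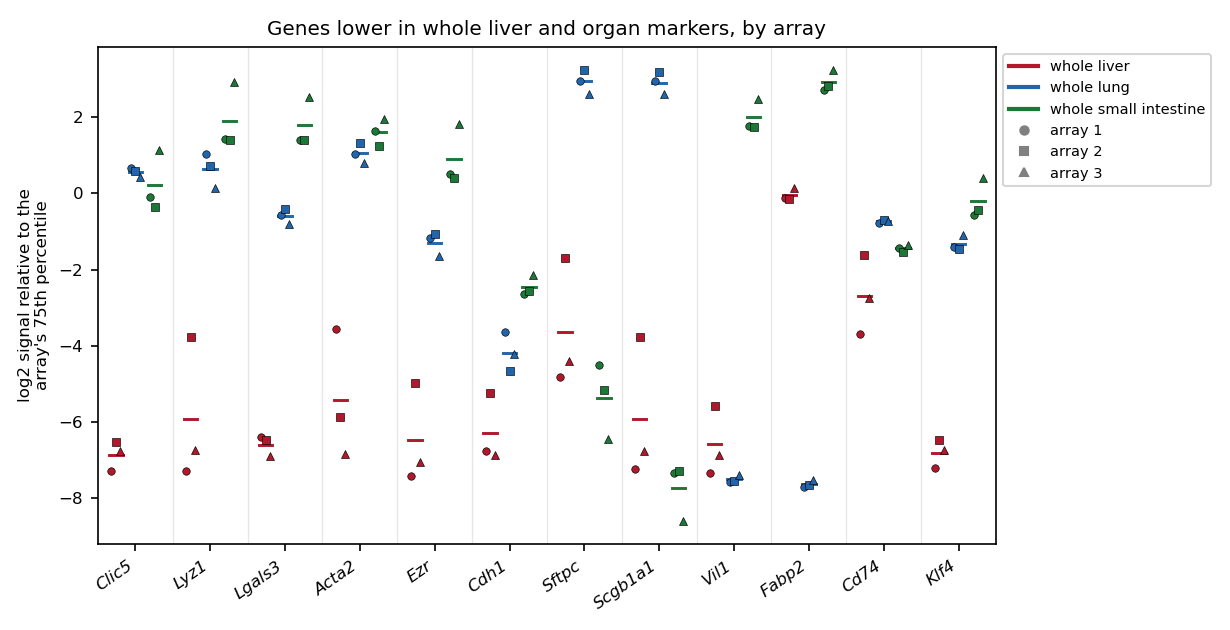
Log2 level on each array of 12 genes that were lower in whole liver than in at least 1 other organ, with liver in red left of lung in blue and intestine in green. Symbols are arrays 1 to 3 and lines are group means. Liver 2 (square) is the highest liver array for Lyz1, Ezr, Sftpc, Scgb1a1 and Vil1.

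Epithelial adhesion genes gave no single direction, with 9 of 29 lower, 4 higher and 16 not called, and without liver 2 there were 15 lower genes. Among all genes tested 22.0% were lower and 14.8% higher. Cldn2, a claudin of leaky epithelia, was at least 2.74-fold higher in liver than the mean of both (adjusted p = 0.002). Epcam, absent from mature hepatocytes and present on duct cells, had -6.11, -1.90 and -5.09 in liver, -5.93, -5.98 and -5.36 in lung and -3.14, -2.89 and -3.74 in intestine. Its difference of 0.14 ± 0.80 (log2, SE; adjusted p = 0.896) became -1.09 without liver 2 (adjusted p = 0.0442). Krt18, a keratin of simple epithelia that hepatocytes carry, was 1.93-fold higher than in lung (adjusted p = 0.0133), and its call against the mean of both was lost under 10 alternatives. Its partner Krt8 was not called (difference -1.06 ± 0.69, log2, SE; adjusted p = 0.248), and without liver 2 it was called lower at -1.98 (log2; adjusted p = 0.0119).

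Of the MHC class II and dendritic cell list 8 of 13 genes were lower and none higher, against 22.0% lower and 14.8% higher among all genes tested. Of the T and NK cell list 4 of 15 were lower and 1 higher, of the B and plasma cell list 4 of 10 lower and none higher, and of the neutrophil and mast cell list 2 of 8 lower and 1 higher. Gzma, granzyme A of cytotoxic cells, had -6.52, -6.48 and -2.96 in liver, -0.21, -0.77 and 0.11 in lung and 1.74, 1.75 and 2.41 in intestine, lower by 14.6-fold than in lung (adjusted p = 0.00206) and 69.4-fold than in intestine (adjusted p = 2.79e-04), with only liver 3 detecting it. H2-Ab1, a class II chain, had -0.83, -1.37 and -0.62 in liver, 1.47, 1.31 and 1.23 in lung and 1.53 ± 0.71 (SD, n = 3) in intestine, lower by 4.85-fold than in lung (adjusted p = 0.00176) and 5.56-fold than in intestine (adjusted p = 0.00126). Every liver value lay below the other organs. Cd74, the class II invariant chain, was lower than in lung by 3.85-fold (adjusted p = 0.0103) and not called against intestine (adjusted p = 0.0631). Without liver 2, 9 T and NK cell genes, 7 B and plasma cell genes and 1 neutrophil or mast cell gene were lower, and without liver 1, 1 B and plasma cell gene was higher. The neutrophil and mast cell list likewise had 1 lower gene without liver 1, liver 3, lung 1 or lung 2. Ptprc was on the array but did not pass the filter. Wfdc21, a small secreted protein counted with the neutrophil genes, was higher, at 0.50, 1.33 and 1.61 in liver, -3.48, -3.66 and -3.18 in lung and -4.31, -4.24 and -5.75 in intestine, 24.0-fold higher than in lung (adjusted p = 9.99e-05).

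Cell cycle genes were lower in 13 of 25 cases and higher in 1, or higher in 2 without liver 2 or intestine 3 and in none without liver 3. Against intestine 15 were lower and against lung 5, and the difference between these counts was not tested. Among all genes tested 20.4% were lower than in intestine and 20.8% lower than in lung. The count against lung was thus near the share over all genes. Mki67, the Ki-67 antigen of dividing cells, was at least 7.36-fold lower than in intestine (adjusted p = 2.01e-04) and at least 2.12-fold lower than in lung (adjusted p = 0.00366). Birc5, survivin, had -3.66, -3.58 and -3.86 in liver, -2.58, -2.76 and -2.04 in lung and 0.28, 0.15 and 0.50 in intestine, 16.1-fold lower than in intestine (adjusted p = 8.25e-06). Immediate early genes, which tissue dissociation can induce, were lower in 9 of 25 cases and higher in 3, and each organ had its own kit. The shares over all genes tested were 22.0% lower and 14.8% higher. Leaving out liver 1, liver 3, lung 1 or lung 2 gave 6 lower and 1 higher, and leaving out lung 3 gave 6 lower and 2 higher. Klf4 had -7.22, -6.48 and -6.75 in liver, -1.41, -1.47 and -1.08 in lung and -0.56, -0.43 and 0.40 in intestine, at least 15.9-fold lower than the mean of both (adjusted p = 1.66e-06), and Klf6 was 9.04-fold lower (adjusted p = 7.95e-05). Cxcl1, a neutrophil chemokine, was 3.59-fold higher than in lung (adjusted p = 0.0231). Red cell and platelet genes were lower in 3 of 12 cases, near the 22.0% of all genes tested, and higher in 1, Alas2, the erythroid haem enzyme, whose call was lost under 8 alternatives. There were 3 higher without intestine 3, and 2 without liver 1, liver 2 or intestine 1.

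**Figure D5:**
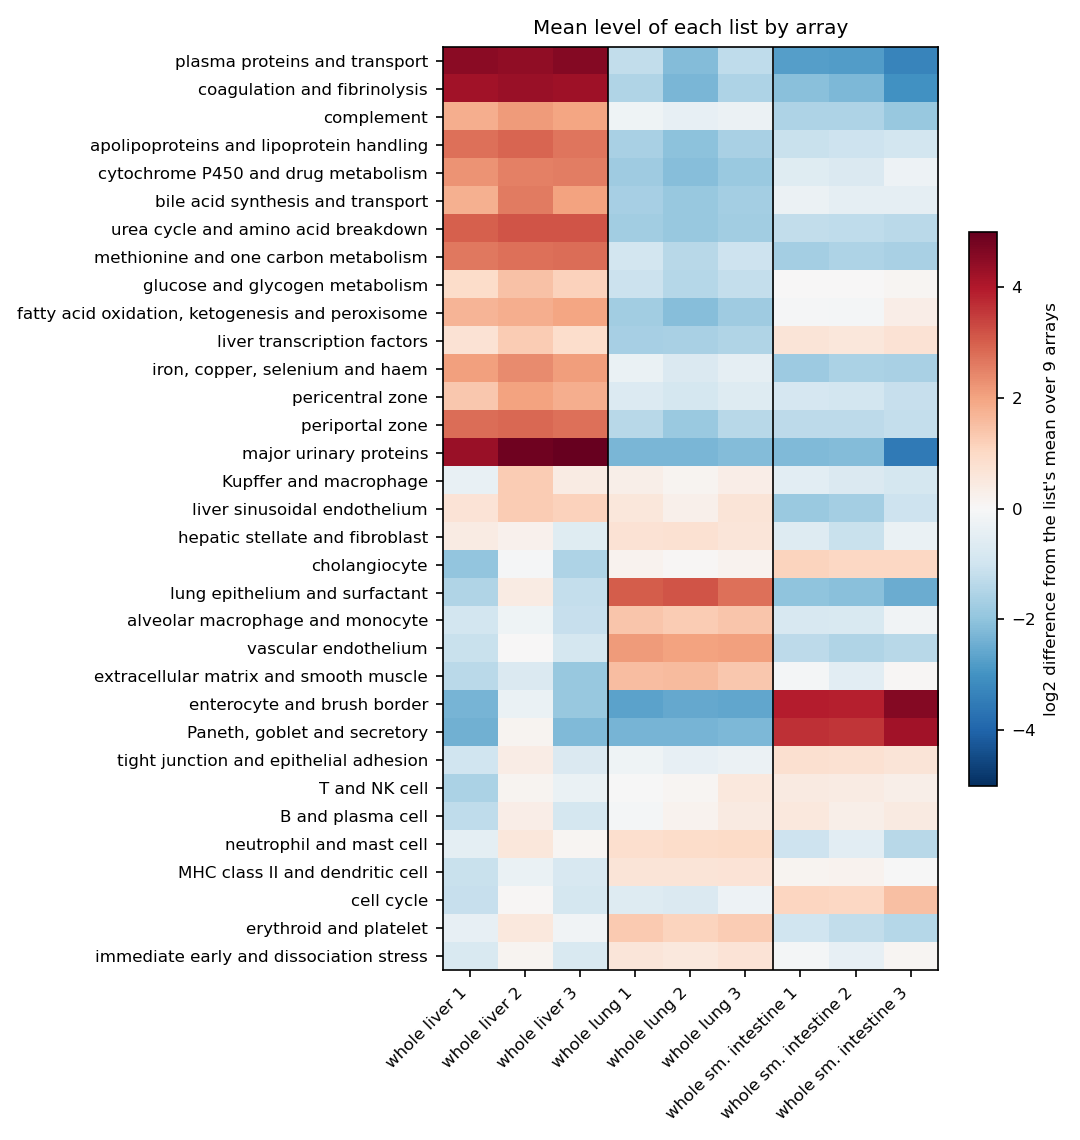
Mean level of each list on each of the 9 arrays, as the log2 difference from the list's own mean over the arrays, liver at left. Hepatocyte lists are red on all 3 liver arrays. Liver 2 lies above liver 1 and 3 in the airway, gut and duct lists and in most other lists, among them the Kupffer, vascular, B cell and cell cycle lists.

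Genes higher in liver than in both organs often lay side by side. Of the 770, 236 (30.6%) had another such gene as the next tested gene on the chromosome, while 15.0% of all tested genes lay next to one. For the 885 genes lower than in both, 202 (22.8%) adjoined another, against 17.7% of all tested genes. The longest runs were 8 Cyp2c genes on chromosome 19 and 8 genes of the major urinary protein region on chromosome 4, followed by 7 Serpina genes on chromosome 12. Runs of 5 held Cyp2d genes on chromosome 15 and Sult2a genes, which sulphate steroids and bile acids, on chromosome 7. Paralogs whose probes may read each other make up these runs, and their share in the count was not tested.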

How the data were processed

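Whole organ RNA was hybridised to single-colour Agilent arrays of 43020 gene spots carrying 39429 probes, 399 of them printed 10 times. Per the file headers, the deposited scanner tables hold spot intensity after background and spatial correction by Feature Extraction 11.0.1.1, while version 10.7 and Partek stand in the submitters' processing notes. The deposited log2 values were compared with a quantile normalization over all 35 arrays and differed by a median of at most 0.000764 per array, so they were treated as quantile normalized.

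Control spots and outlier flags were left out, prints of a probe were averaged, and each array's log2 intensity was reduced by its 75th percentile over the 8012 probes well above background on all 9 arrays. A probe was kept where 3 arrays of an organ were well above background, which left 13731 probes, 2739 without a gene name and not reported. Of 27508 named probes on the array, each gene kept the probe with the highest mean, giving 9523 genes, of which 443 had probes of both signs. A model with 1 mean per organ and 6 residual degrees of freedom was fitted in limma 3.58.1 (R 4.3.3), two-sided, with Benjamini-Hochberg adjustment over all genes. All adjusted p-values are from that fit, and the number of arrays limits the precision. The fit was also run on simulated data with independent normal noise of 1 size per gene on all 9 arrays. That simulation held no array that stood apart.

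The organs compared and the gene lists were chosen with earlier results of these data known, and the lists were described by counts and medians without a test. Named genes were the 15 largest called differences each way, up to 4 called members per list in the commoner direction and up to 2 in the other, a fixed list, and genes whose promoters are printed. F10, Pros1, Slc10a1, Hk1, Hk2, Aldoa, Mup4 and the Alb promoter fall outside that rule and were chosen after their values were seen, and the hepatocyte markers Ttr, Serpina1c, Fga and Ahsg come from the list that checks the liver label. Promoters came from a RefSeq table of build GRCm38.p6, matched by symbol. Alternatives covered scaling, background correction, filters, array weights, further arrays, slide as a block and each array left out. The normexp correction used the median signal column of the scanner tables in place of the mean signal.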

Additional observations from a re-analysis of the deposited data

How the results depend on the processing

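Of 174 named genes called against the mean of lung and intestine, 130 were called under every alternative that tested them (21 or 22), 21 lost the call under 1 and 23 under 2 or more. Epcam ranged from -1.09 without liver 2 (adjusted p = 0.0442) to 1.02 without liver 1 (adjusted p = 0.32), and was -1.25 without liver 2 and intestine 3 (adjusted p = 0.00849), a setting chosen after seeing the data. Scaling on all probes gave 700 higher genes and 407 higher than both organs. The counts under array weights were 2304 higher, 3643 lower, 5718 called against lung, 5555 against intestine, 1306 higher than both and 1822 lower than both. With the blood cell arrays added (12 arrays) they were 666, 988, 1602, 1758, 398 and 313 in the same order. With all 35 arrays 461 genes were lower than both, and 8 calls went the opposite way. Without a filter on dim probes 542 were lower than both, and requiring 6 of 9 arrays above background left 510 higher than both. Without liver 2 and intestine 3, 3541 were lower, 5095 were called against lung and 1706 were lower than both. Leaving out 1 array gave 1108 to 1883 higher, 1435 to 2790 lower, 2583 to 4011 called against lung, 2802 to 3907 against intestine, 645 to 923 higher than both and 638 to 1267 lower than both. Higher genes made up 54.7% of calls without liver 1 and 30.2% without liver 2. The cause of these shifts was not tested.

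The replicate number is also the slide. Same-numbered arrays of different organs had deviations that correlated at -0.325 to 0.033, and differently numbered ones at -0.231 to 0.312. Deviations from means of 3 arrays cannot show whether the samples were paired. With the replicate block 1188 genes were higher and 1782 lower. Differences of genes that no array of an organ detected are known only as bounds, and probes of near-identical paralogs may read each other.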
